A study of Mus musculus with 16 samples.

Results

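Expression of 8 genes of the mature neutrophil was followed in leukemic bone marrow of wild-type (WT) and IL-6 knockout (IL-6 KO) mice. The genes were S100a8, S100a9, Retnlg, Il1r2, Ly6g, Hdc, Wfdc21 and Stfa2l1, taken by gene symbol from the normalized counts of stroma and of tumor. All 8 had values among the 13344 genes of stroma. Of the 15080 genes of tumor, 7 were members, and Stfa2l1 was not analysed here in tumor. A gene was tested where its mean normalized count over the 8 libraries of its compartment was above 10, which left 7 members in stroma (Stfa2l1 had a mean of 8.65) and 6 in tumor (Il1r2 had a mean of 9.15).

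The leukemia was a transplantable BCR-ABL+, Arf-/- B cell acute lymphoblastic leukemia (B-ALL) made mCherry+ with a retroviral vector. Every mouse in all 4 groups received 500000 of these cells by tail vein, and the bone marrow was taken 8 days later, before any chemotherapy. Hosts were C57BL/6J mice, WT or lacking Il6 in the germline (labelled IL6 KO), bought at 6 to 8 weeks of age, and both sexes were in use. Red blood cells were lysed and live single cells were sorted, mCherry+ cells as tumor and mCherry- cells as stroma. The groups were WT stroma, IL-6 KO stroma, WT tumor and IL-6 KO tumor, with 4 libraries in each. The leukemia was the same in both hosts, so in tumor the genotype is that of the host and not of the leukemic cells. Stroma here means every mCherry- marrow cell, blood cells included. The sources used here do not say which mouse gave which library, so p-values measure the spread between libraries. Il6 itself was not analysed here and could not serve as a check of the labels.

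Neutrophils are made in the bone marrow from precursors that first fill primary granules with enzymes such as myeloperoxidase, then secondary granules with proteins such as lactoferrin, and that switch on the genes of the mature cell last. S100a8 and S100a9 are small calcium-binding proteins that pair into calprotectin, which makes up much of the protein of the neutrophil cytosol, binds zinc and manganese, and acts on Toll-like receptor 4 and RAGE when released. Their genes lie side by side in a cluster of S100 genes. IL-6 signals through gp130 and STAT3. Of these, STAT3 also serves the granulocyte growth factor G-CSF. C/EBP and PU.1 are the factors best known for driving the granulocyte program.

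On GRCm38 (GENCODE vM21), S100a8 spans chr3:90668978-90670035 on the plus strand and S100a9 chr3:90692632-90695721 on the minus strand. Retnlg (chr16:48872621-48874496) and Stfa2l1 (chr16:36156811-36161953) are on the plus strand of chromosome 16. The others are Il1r2 (chr1:40074079-40125231, plus), Ly6g (chr15:75155240-75159126, plus), Hdc (chr2:126593667-126619299, minus) and Wfdc21 (chr11:83746940-83752642, plus). All are protein-coding, and none had a transcript of another gene at 97% identity or more over at least 150 nucleotides. At 90% identity Stfa2l1 matched Stfa2, so reads of these paralogs may have been divided between them.

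RefSeq promoters (GRCm38.p6, from 250 bases before to 50 after the start) were found for 7 of the 8 genes. Those of S100a8 and S100a9 are shown because the ratio of these neighbouring genes differed between host genotypes in tumor. That of Ly6g is shown because its fold change was the highest among the members in tumor. Ly6g entered the test only through its level in IL-6 KO, so this rank is a description. S100a8 is chr3:90668821-90669120 (plus), S100a9 is chr3:90695672-90695971 (minus) and Ly6g is chr15:75155011-75155310 (plus, the first of 2 listed starts). Capitals mark matches to the motifs described next.
S100a8: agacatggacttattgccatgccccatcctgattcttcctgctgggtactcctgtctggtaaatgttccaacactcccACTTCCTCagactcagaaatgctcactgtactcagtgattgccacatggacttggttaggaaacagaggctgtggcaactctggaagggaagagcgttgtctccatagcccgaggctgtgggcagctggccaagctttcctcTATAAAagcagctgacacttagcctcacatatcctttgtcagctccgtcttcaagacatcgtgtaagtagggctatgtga
S100a9: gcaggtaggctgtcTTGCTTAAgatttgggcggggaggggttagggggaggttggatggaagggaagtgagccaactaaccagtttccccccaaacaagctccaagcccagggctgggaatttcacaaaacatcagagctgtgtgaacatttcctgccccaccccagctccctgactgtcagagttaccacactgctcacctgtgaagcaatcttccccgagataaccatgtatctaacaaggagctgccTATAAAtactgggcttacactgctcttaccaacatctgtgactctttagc
Ly6g: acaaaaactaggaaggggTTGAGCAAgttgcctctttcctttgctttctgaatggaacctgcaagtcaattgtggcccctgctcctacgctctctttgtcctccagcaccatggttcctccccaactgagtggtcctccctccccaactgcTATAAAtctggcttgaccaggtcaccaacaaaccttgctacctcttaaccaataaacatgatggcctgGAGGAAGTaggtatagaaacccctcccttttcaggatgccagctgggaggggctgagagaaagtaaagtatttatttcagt
Both strands were searched for the core promoter letters TATAAA and for the letters known to be bound by C/EBP (TTGCNNAA), PU.1 (GAGGAAGT) and STAT factors (TTCNNNGAA), and no matches in the promoters shown overlap each other. The first of these was found in S100a8 (first base at -30 from the start), S100a9 (at 1) and Ly6g (at -99), and in 13.6% of all 32851 promoters. The C/EBP letters were found in S100a9, Ly6g and Retnlg, and in 10.8% of all promoters. The PU.1 letters were found in S100a8 and Ly6g, and in 3.2% of all promoters. The STAT letters were found in Il1r2, and in 8.3% of all promoters. A match is a description of the letters and not a binding site.

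The label of mature neutrophil genes was compared with where the genes were measured. Levels per transcript length were taken in ppm of the summed per-length values of 10521 protein-coding genes measured in both compartments. Stroma and tumor were normalized separately, so these levels are set side by side without a test. In WT mice the level per length of S100a9 was 3097 ± 897 (SD, n = 4) in stroma and 160.4 ± 17.1 (SD, n = 4) in tumor, 19.3 times higher in stroma. S100a8 was 11.9 times, Wfdc21 15.3 times, Ly6g 22.3 times, Retnlg 31.1 times, Hdc 35.1 times and Il1r2 10.3 times higher in WT stroma than in WT tumor. Csf3r, the G-CSF receptor of granulocytes, was 157 times higher in WT stroma. Cd79a, part of the B cell receptor, went the other way, at 33.2 in WT stroma and 1197 in WT tumor. RNA of the members was thus at its higher level in stroma, and in tumor it stood beside abundant B lineage RNA.

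In WT stroma the order per length was S100a9, S100a8, Retnlg, Wfdc21, Hdc, Stfa2l1, Ly6g and Il1r2. S100a9 ranked between 16 and 41 of the 10521 genes in the WT stroma libraries, and S100a8 between 47 and 87. From Wfdc21 downward, each gene overlapped its neighbour in the order over the 4 libraries. In WT tumor S100a9 (139 to 181) stood above S100a8 (102 to 132) without overlap, whereas Retnlg (4.17 to 11.4) and Wfdc21 (2.72 to 7.94) overlapped. Hdc (0.661 to 1.12), Ly6g (0.197 to 0.851) and Il1r2 (0.323 to 0.667) also overlapped in WT tumor. In IL-6 KO stroma S100a9 (1398 to 6647) and S100a8 (597 to 2571) overlapped. In IL-6 KO tumor S100a9 (191 to 515) again stood above S100a8 (83.9 to 172). S100a8 and S100a9 made up 80.6 to 90.1% of the members' summed normalized counts in WT stroma, 68.4 to 85.3% in IL-6 KO stroma, 90.5 to 93.1% in WT tumor and 88.2 to 93.3% in IL-6 KO tumor.

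**Figure D1:**
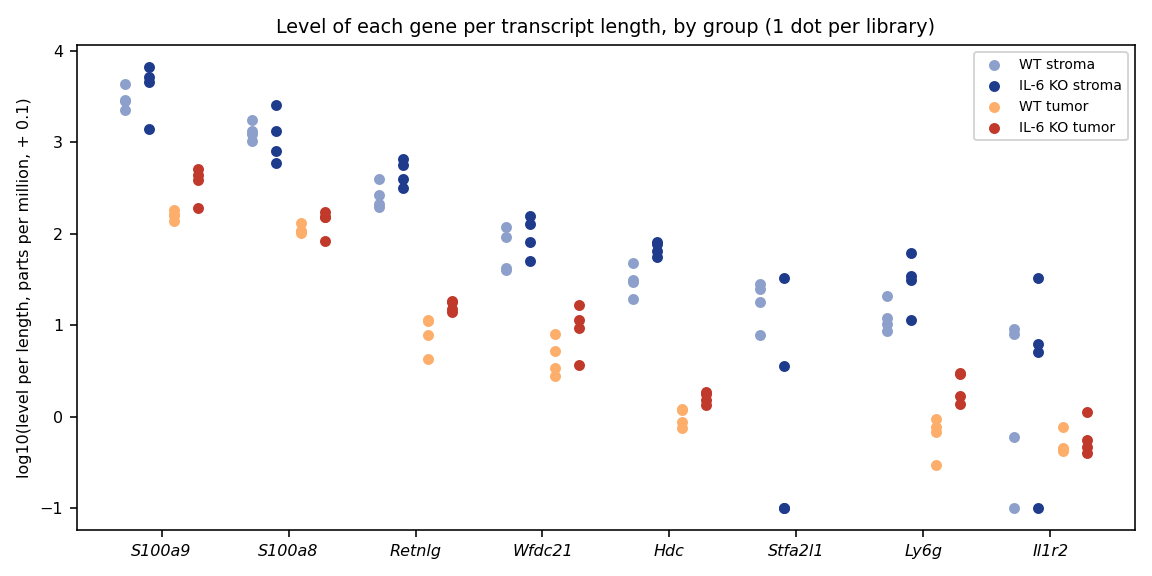
Level per transcript length of each gene on a log10 axis (ppm, plus 0.1), with 1 dot per library and a color per group. S100a9 averaged 3097 in WT stroma and 160.4 in WT tumor, Stfa2l1 has no tumor values, and values at 0 lie at -1.

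In tumor, 4 of the 6 members tested rose in IL-6 KO mice, namely S100a9, Ly6g, Retnlg and Hdc, with fold changes between 0.88 and 1.93 on the log2(normalized count + 1) scale (limma, adjusted p under 0.05 among 14493 genes tested). This threshold was passed by 19.8% of all genes in tumor, 10.6% as higher and 9.16% as lower in IL-6 KO. The log2 fold change was above 0 for all 6 members tested and for 49.3% of all genes. The median log2 fold change was 1.13 over the 6 members and -0.01 over all genes tested. The same 4 members had all IL-6 KO libraries above all WT libraries, which held for 13.6% of all genes. Ly6g had a WT mean under 10 and was tested because of its level in IL-6 KO. Among genes with WT and IL-6 KO means both over 10, a condition added after seeing the data, 3 of 5 members and 19.7% of all genes passed the threshold, and the median over these members was 1.12. The signal recognition particle RNA Rn7s1 took 3.40 to 4.11% of the summed normalized counts in WT tumor and 5.40 to 6.24% in IL-6 KO tumor. These ranges did not overlap, and the part of Rn7s1 in the tumor results was not tested. In sorted bulk samples, more cells of a type and more RNA per cell cannot be told apart.

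S100a9 had normalized counts of 1109, 1174, 892 and 1069.9 in WT tumor and of 3162, 3697, 1393 and 2819 in IL-6 KO tumor. All IL-6 KO libraries were above all WT libraries, with IL-6 KO library 3 the nearest to WT. S100a9 rose by a log2 fold change of 1.30 (SE 0.26, limma adjusted p = 0.00921), and it passed the threshold under every alternative run, with an adjusted p of at most 0.0325.

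S100a8, the partner of S100a9, had normalized counts of 703, 826, 669.8 and 650.4 in WT tumor and of 1071, 1184, 588 and 1068 in IL-6 KO tumor. In IL-6 KO, 3 libraries were above all of WT and library 3 was below all of WT. The log2 fold change was 0.41 (SE 0.20, 95% confidence interval -0.04 to 0.86, limma adjusted p = 0.174), which did not pass. Without IL-6 KO library 3 it was 0.64 (limma adjusted p = 0.00859), and with the trend of GC content and length taken out of each library it was 1.03 (limma adjusted p = 0.00978).

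Ly6g encodes the surface protein by which antibodies distinguish mouse neutrophils. It had normalized counts of 8.39, 2.32, 6.82 and 10.2 in WT tumor and of 36.9, 16.5, 21.0 and 38.7 in IL-6 KO tumor. The groups did not overlap, and Ly6g rose by a log2 fold change of 1.93 (SE 0.50, limma adjusted p = 0.0246). The WT mean of 6.94 was under the minimum of 10, so Ly6g was tested because of its level in IL-6 KO. The adjusted p was 0.0512 without WT library 3, 0.0780 without IL-6 KO library 1 and 0.0794 without IL-6 KO library 4. Il1r2, a decoy receptor that takes up IL-1 without signaling, was at 6.43, 5.74, 6.23 and 12.1 in WT tumor and at 20.3, 5.85, 7.35 and 9.22 in IL-6 KO tumor. These groups overlapped, and Il1r2 was not tested in tumor.

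Retnlg and Wfdc21 encode small secreted proteins of the resistin and whey acidic protein families. Retnlg had normalized counts of 90.1, 58.0, 30.7 and 84.0 in WT tumor and of 149.7, 151.6, 123.6 and 117.1 in IL-6 KO tumor. The groups did not overlap, and Retnlg rose by a log2 fold change of 1.14 (SE 0.32, limma adjusted p = 0.0328). The call was lost when WT library 2 or any of the 4 IL-6 KO libraries was left out, with adjusted p between 0.0573 and 0.0852. Wfdc21 had normalized counts of 19.0, 43.2, 27.7 and 15.1 in WT tumor and of 55.5, 100.2, 22.2 and 68.4 in IL-6 KO tumor. IL-6 KO library 3 was within the WT range. The log2 fold change of Wfdc21 was 1.12 (SE 0.48, limma adjusted p = 0.123), and without IL-6 KO library 3 it was 1.54 (limma adjusted p = 0.0340).

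Hdc encodes histidine decarboxylase, which makes histamine and is used by immature and mature granulocytes as well as by basophils and mast cells. It had normalized counts of 66.1, 63.3, 44.1 and 38.1 in WT tumor and of 105.7, 77.1, 90.5 and 112.6 in IL-6 KO tumor. The groups did not overlap, and Hdc rose by a log2 fold change of 0.88 (SE 0.24, limma adjusted p = 0.0294). The adjusted p was between 0.0544 and 0.0877 without WT library 3 or 4 or IL-6 KO library 1, 3 or 4. Prss34, a protease of basophils, averaged 15.5 ± 9.36 (SD, n = 4) among WT tumor libraries and 49.0 ± 20.8 (SD, n = 4) among those of IL-6 KO (log2 fold change 1.78, limma adjusted p = 0.0739), and its part in the Hdc result was not tested. Of 3 basophil, mast cell and eosinophil markers tested in tumor, 0 passed. Among them 1, Prss34, had an unadjusted p under 0.05 (limma), as did 35.1% of all genes tested in tumor. Kit stood at 0.28 on the log2 scale (limma adjusted p = 0.846), with a lower mean in IL-6 KO (16.2) than in WT (28.4), where 1 library was at 95.3, and Siglecf at -0.20 (limma adjusted p = 0.825). Mcpt8, Cpa3 and Fcer1a, which define basophils and mast cells, were not analysed here.

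**Figure D2:**
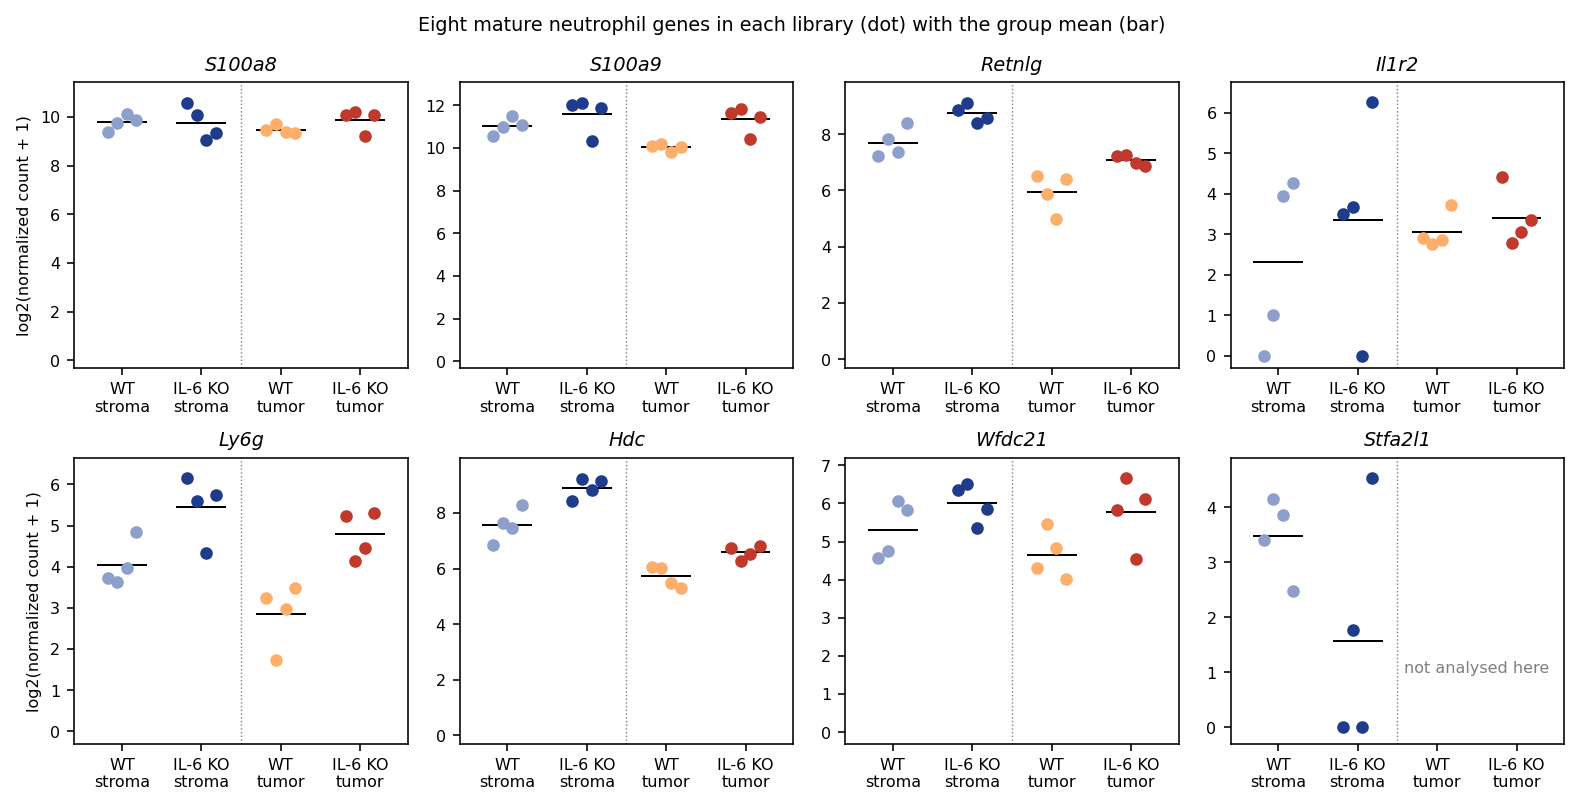
Each of the 8 genes on a scale of log2(normalized count + 1), with 1 dot per library in replicate order and a bar at the group mean, stroma left and tumor right of the dotted line (normalized separately). In tumor every IL-6 KO dot of S100a9, Retnlg, Ly6g and Hdc lies above every WT dot, and in stroma this holds for Retnlg and Hdc.

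In stroma, where the genes were measured at far higher levels per length, 0 of the 7 members tested passed the threshold (limma, adjusted p), as did 0.0082% of all 12202 genes tested. At an unadjusted p under 0.05 there were 2 members, Retnlg and Hdc, both higher in IL-6 KO, and 9.15% of all genes (3.95% higher). The same 2 members had all IL-6 KO libraries above all WT libraries, which held for 2.54% of all genes. The log2 fold change was above 0 for 6 of the 7 members and for 49.4% of all genes, and its median was 1.04 over the members and -0.01 over all genes. Il1r2 had a WT mean under 10 here and was tested because of its IL-6 KO level, and without it 5 of 6 members were above 0, with a median of 0.88. The spread was wider in stroma, where the median residual SD over all genes was 0.86 on the log2 scale against 0.21 in tumor. Rn7s1 took 19.2 to 50.1% of the summed normalized counts in WT stroma. It took 71.5 to 79.0% in IL-6 KO stroma libraries 1 to 3 and 10.9% in IL-6 KO stroma library 4, and its part in these results was not tested. Library 4 still had a sum of normalized counts of 33973016, against 8805689 to 17470735 in WT stroma. The median normalized count was 71.6 in library 4 and 65.4 to 71.8 in WT stroma. RNA other than Rn7s1 thus made up most of the sum of library 4, and its part was not tested either.

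S100a9 had normalized counts of 1518, 2058, 2946 and 2156 in WT stroma and of 4135, 4454, 1305 and 3820.1 in IL-6 KO stroma. IL-6 KO library 3 was below all of WT and the others were above all of WT. The log2 fold change was 0.55 (SE 0.40, 95% confidence interval -0.32 to 1.42, limma adjusted p = 0.696). S100a8 had normalized counts of 671, 865, 1130.1 and 941 in WT stroma and of 1534, 1093, 534 and 642 in IL-6 KO stroma, and its log2 fold change was -0.02 (SE 0.37, 95% confidence interval -0.82 to 0.77, limma adjusted p = 0.993). For S100a8, 1 IL-6 KO library was above all of WT and 2 were below all of WT, and the sign of the fold change turned under 6 of the alternatives. A difference in either direction within that interval was not detectable with this spread.

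Hdc had normalized counts of 113.8, 198.8, 176.2 and 307 in WT stroma and of 348, 603, 452 and 566 in IL-6 KO stroma. The groups did not overlap, with a log2 fold change of 1.36 (SE 0.38, unadjusted p = 0.0036, limma adjusted p = 0.347). Retnlg had normalized counts of 150.2, 224, 163 and 333 in WT stroma and of 464, 555, 339.8 and 382 in IL-6 KO stroma. Its groups also did not overlap, with a log2 fold change of 1.04 (SE 0.36, unadjusted p = 0.0137, limma adjusted p = 0.440). Ly6g was at 12.3, 11.3, 14.6 and 27.8 in WT stroma and at 70.0, 47.7, 19.2 and 52.1 in IL-6 KO stroma. Of the IL-6 KO libraries, number 3 lay within the WT range of Ly6g, and the log2 fold change was 1.42 (SE 0.69, limma adjusted p = 0.558).

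Wfdc21 was at 22.7, 25.7, 66.2 and 56.3 in WT stroma and at 80.8, 90.7, 39.6 and 56.8 in IL-6 KO stroma, with overlapping groups and a log2 fold change of 0.71 (SE 0.58, limma adjusted p = 0.731). Il1r2 was listed at 0, 1.00, 14.5 and 18.1 in WT stroma and at 10.4, 11.8, 0 and 75.3 in IL-6 KO stroma. Its groups overlapped, and the log2 fold change of 1.06 had an SE of 1.53 (limma adjusted p = 0.868). Stfa2l1, an inhibitor of cysteine proteases of the stefin family, was at 9.61, 16.8, 13.5 and 4.57 in WT stroma and was listed at 0, 2.39, 0 and 22.2 in IL-6 KO stroma. Stfa2l1 was not tested. The labels do not say whether stroma and tumor libraries of the same number came from the same mouse. A difference between stroma and tumor in the effect of the genotype was not tested, since the compartments were normalized separately.

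**Figure D3:**
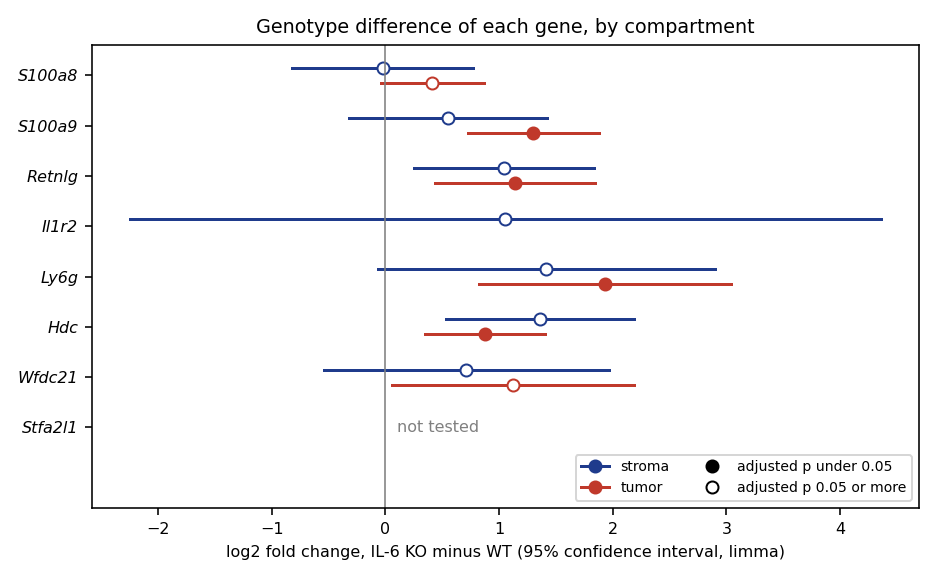
Log2 fold change of IL-6 KO over WT with its 95% confidence interval (limma) for each gene in stroma (blue) and tumor (red), filled where the adjusted p was under 0.05. S100a9, Ly6g, Retnlg and Hdc are filled in tumor, no gene is filled in stroma, and Il1r2 in tumor and Stfa2l1 were not tested.

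S100a8 and S100a9 form a heterodimer, so their ratio was compared within each library, where the scale of the library cancels. In tumor the normalized count of S100a9 was 1.58, 1.42, 1.33 and 1.64 times that of S100a8 in WT and 2.95, 3.12, 2.37 and 2.64 times in IL-6 KO. The groups did not overlap. The log2 ratio of S100a8 to S100a9 was -0.57 ± 0.14 (SD, n = 4) for WT tumor against -1.46 ± 0.18 (SD, n = 4) for IL-6 KO tumor, a difference of -0.89 (two-sided exact permutation test, p = 0.0286, which is the lowest value possible with 4 libraries in each group). In stroma S100a9 was 2.26, 2.38, 2.61 and 2.29 times S100a8 in WT and 2.69, 4.07, 2.44 and 5.95 times in IL-6 KO. IL-6 KO stroma library 3 was within the WT range. The log2 ratio was -1.25 ± 0.09 (SD, n = 4) for WT stroma against -1.83 ± 0.59 (SD, n = 4) for IL-6 KO stroma, a difference of -0.58 (two-sided exact permutation test, p = 0.0571). Both transcripts are of similar length (498 and 519 nucleotides) and GC content (44.2 and 45.1%). The 2 ratio tests were each taken alone, without adjustment.

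**Figure D4:**
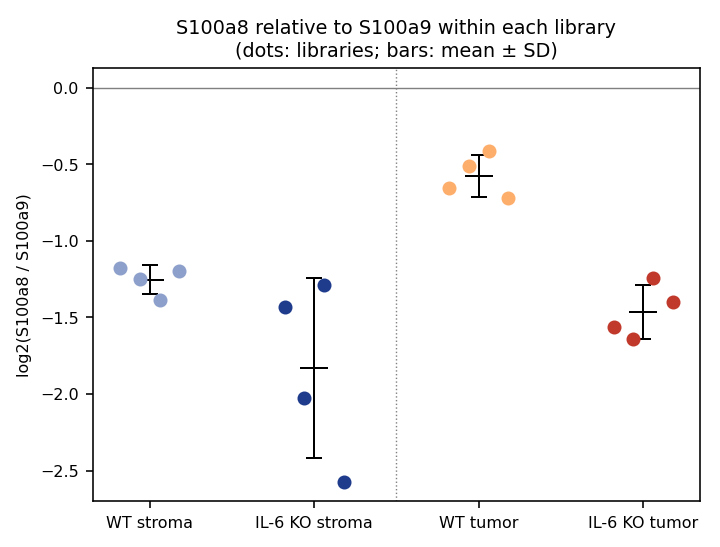
Log2 ratio of S100a8 to S100a9 in each library (dots), with the mean and SD of each group (bars). IL-6 KO tumor lies between -1.64 and -1.24 and WT tumor between -0.72 and -0.41, and IL-6 KO stroma spreads from -2.57 to -1.29.

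Other genes of the neutrophil were read as background to the members. For these lists and those that follow, 10.6% of all genes tested in tumor rose and 9.16% fell at the same threshold. Cebpe, Csf3r and Ly6c2 stand in more than 1 list and are counted in each. Of 31 other mature neutrophil genes tested in tumor, 17 rose and 0 fell, with a median log2 fold change of 1.16. With both group means over 10 it was 16 of 27. Cd177, a surface protein of neutrophils, averaged 163.0 ± 7.62 (SD, n = 4) with WT hosts and 778 ± 247 (SD, n = 4) with IL-6 KO hosts, and rose by 2.18 on the log2 scale (limma adjusted p = 0.000801). Trem3, an activating receptor, rose by 1.91 (limma adjusted p = 0.00247) and Pglyrp1, which binds bacterial peptidoglycan, by 1.49 (limma adjusted p = 0.00551). Hp, the hemoglobin-binding protein haptoglobin, rose by 2.06 (limma adjusted p = 0.00585). In stroma 0 of 34 passed, 6 had an unadjusted p under 0.05 and 29 were above 0, with a median of 0.74. Of all genes tested in stroma, 9.15% had an unadjusted p under 0.05 (limma) and 49.4% were above 0. Mmp9, a gelatinase, stood at 1.25 on the log2 scale (limma adjusted p = 0.364) and G0s2, an inhibitor of lipolysis, at 2.28 (limma adjusted p = 0.368) in stroma.

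Genes of granules and precursors rose in tumor in 15 of 18 cases and fell in 0, with a median log2 fold change of 1.95. With both group means over 10 it was 13 of 15, with a median of 1.83. Mpo, the myeloperoxidase of primary granules, averaged 202 ± 47.7 (SD, n = 4) with WT hosts and 805 ± 230.0 (SD, n = 4) with IL-6 KO hosts, and rose by 1.97 (limma adjusted p = 0.00161). The secondary granule genes Ngp, Camp and Lcn2 rose by 1.93, 2.06 and 2.01 (limma adjusted p = 0.00175, 0.00193 and 0.00213). A difference between precursor and mature genes was not tested. In stroma 0 of 17 passed, 16 were above 0 and the median was 0.34. Ltf, lactoferrin, stood at 1.27 on the log2 scale (limma adjusted p = 0.518) in stroma. Ms4a3, a gene of early granulocyte precursors, stood at 2.77 (limma adjusted p = 0.480), but its WT mean was 2.12, so that only its IL-6 KO mean of 28.1 brought it into the test.

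Of 21 regulators of granulocyte differentiation, 6 rose in tumor and 0 fell, against 10.6% and 9.16% of all genes. Their median log2 fold change was 0.24. Cebpa and Cebpe, the C/EBP factors of early and late granulocyte differentiation, rose by 2.20 (limma adjusted p = 0.00263) and 2.36 (limma adjusted p = 0.0145). Il6ra, the receptor subunit that binds IL-6, averaged 430.2 ± 56.6 (SD, n = 4) with WT hosts and 674 ± 36.3 (SD, n = 4) with IL-6 KO hosts, and rose by 0.65 (limma adjusted p = 0.00545), and the kinase gene Tyk2 rose by 0.30 (limma adjusted p = 0.0215). In stroma 0 of 21 passed, and Cebpa and Socs3, the inhibitor of gp130 signaling, had log2 fold changes of 1.42 and 2.24 (limma adjusted p = 0.432 for both).

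Of 13 receptors and binding partners of S100a8 and S100a9, 3 rose and 2 fell in tumor. Ly96, the co-receptor of Toll-like receptor 4, fell by 1.27 on the log2 scale (limma adjusted p = 0.0119), and Nptn, a neuroplastin known to bind S100A8, fell by 0.43 (limma adjusted p = 0.0174). Cd33 rose by 0.92 (limma adjusted p = 0.0355) and Bsg, basigin, by 0.39 (limma adjusted p = 0.0383). In stroma 0 of 10 passed, with log2 fold changes of 1.58 for Myd88, the adaptor of Toll-like receptors, and 1.41 for Ager, which encodes RAGE (limma adjusted p = 0.370 and 0.406). Of the S100, resistin, stefin, Ly6, IL-1 receptor and histamine genes related to the members, 1 of 15 passed in tumor, with a median log2 fold change of 0.04. This was Ly6c2, which rose by 2.08 (limma adjusted p = 0.00219), while S100a11, S100a1 and S100a6 had log2 fold changes of 0.97, 0.95 and -0.17 (limma adjusted p = 0.0754, 0.0802 and 0.161). In stroma 0 of 16 passed, with 1.97 for Il1rap and 1.47 for S100a6 (limma adjusted p = 0.527 and 0.537).

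**Figure D5:**
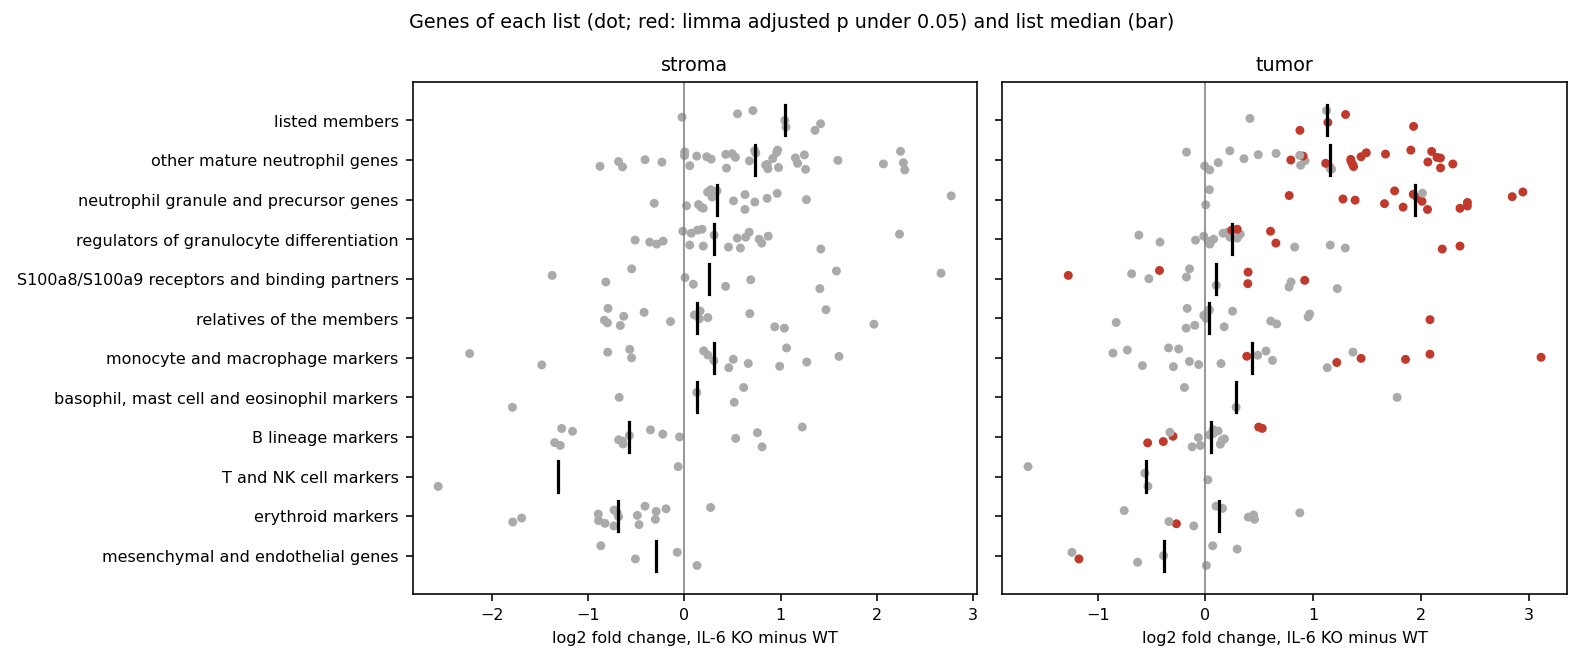
Log2 fold change of IL-6 KO over WT for each gene tested (dots), by list, in stroma (left) and tumor (right), red where the limma adjusted p was under 0.05, with a bar at each list's median. In tumor the medians of the members, other mature neutrophil genes and granule genes are 1.13, 1.16 and 1.95, and in stroma no dot is red.

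Markers of other cells that a sort of marrow could hold were read beside the members. Of 20 monocyte and macrophage markers, 6 rose and 0 fell in tumor, with a median log2 fold change of 0.43. Ly6c2, Fn1, Irf8 and Ccr2 were the genes of this list with the smallest p, and Fn1, fibronectin, rose by 3.12 (limma adjusted p = 0.008), Irf8 by 0.38 (limma adjusted p = 0.0115) and Ccr2 by 1.22 (limma adjusted p = 0.0126). The list's summed normalized count was 5079 to 5659 in WT tumor and 6717 to 10149 in IL-6 KO tumor. Irf8 made up most of it, and without Irf8 the sums overlapped (1277 to 1655 in WT and 1547 to 4582 in IL-6 KO). Below 0 in log2 fold change were 8 of the 20, among them the macrophage genes Mertk at -0.86, Siglec1 at -0.73 and C1qa at -0.59 (limma adjusted p = 0.123, 0.126 and 0.135). Of 16 B lineage markers in tumor, Vpreb1 and Vpreb2 rose by 0.53 and 0.49 (limma adjusted p = 0.00368 and 0.00921) and 3 fell, Cd24a by 0.39, Ebf1 by 0.30 and Cd22 by 0.54 (limma adjusted p = 0.0148, 0.0254 and 0.0283), with a summed count of 186500 to 191045 in WT and 194048 to 206667 in IL-6 KO. Of 10 erythroid markers in tumor, Car2 fell by 0.27 (limma adjusted p = 0.0435) and the rest did not pass. Their sums were 13170.0 to 15988 in WT and 13489 to 16375 in IL-6 KO. Most of this came from Tfrc and Car2, with WT means of 8164 and 4571, against 545 for Hba-a1. The 4 T and NK cell markers tested in tumor did not pass, with a median log2 fold change of -0.55 and 1 of the 4 above 0. Their sums were 1657 to 1982 in WT and 1180 to 1557 in IL-6 KO. Lck and Klrb1c made up most of these sums, with WT means of 1160 and 551, against 24.4 for Trac. Cd3d, Cd3e and Cd3g were not analysed here. Of 7 mesenchymal and endothelial genes, Col1a2 fell by 1.17 (limma adjusted p = 0.0394). The part of these cells in the members' results was not tested.

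In stroma no gene of these lists passed. The erythroid list had the lowest median among the larger lists, -0.69, with 1 of 16 genes above 0. Its summed count was 139671 to 200899 in WT stroma and 59788 to 255694 in IL-6 KO stroma. Epb42, a red cell membrane protein, had a log2 fold change of -1.78 in stroma (limma adjusted p = 0.476). The monocyte and macrophage list (15 tested) had a median of 0.31 and sums of 1116 to 2523 in WT and 1342 to 3558 in IL-6 KO stroma, and the log2 fold change of Cx3cr1 was 1.27 (limma adjusted p = 0.515). The B lineage list (15 tested) had a median of -0.57 and sums of 5880 to 9559 in WT and 3326 to 6258 in IL-6 KO stroma. Cd24a made up most of these sums, and without Cd24a they were 1078 to 2143 in WT and 928 to 1953 in IL-6 KO. The 4 mesenchymal and endothelial genes tested had a median of -0.29, and Cxcl12, Lepr and Cdh5, which define niche cells, were not analysed here in stroma. For basophils, mast cells and eosinophils, 5 genes were tested in stroma, with sums of 328 to 516 in WT and 168 to 806 in IL-6 KO.

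Genes whose pattern over the 16 libraries was most like that of the members were found by the root mean square difference on the log2 scale from the mean of the 6 members tested in both compartments, each centred within its compartment. Over 10881 genes the median difference was 0.85. The 8 nearest were Lyz2 (0.24), Pstpip1 (0.27), Ncf1 (0.30), Nin (0.31), Ctdsp2 (0.31), Flna (0.32), Klc4 (0.32) and Rgl2 (0.32). Lyz2 encodes the lysozyme of myeloid cells and Ncf1 a subunit of the phagocyte NADPH oxidase. The others were on none of the gene lists used here, and Flna, Ctdsp2 and Nin had means of 18585, 6157 and 4893 in WT tumor. Lyz2 had a mean of 1566 in WT and 3919 in IL-6 KO tumor, and 596 in WT and 1169 in IL-6 KO stroma. As these genes were chosen for their pattern, their values are a description. Of the members themselves, S100a9 lay nearest to the mean pattern (0.28) and Ly6g farthest (0.59). The mean pattern ran from -0.94 to 0.05 over WT stroma libraries, from -0.27 to 0.79 over IL-6 KO stroma, from -0.77 to -0.40 over WT tumor and from 0.01 to 0.77 over IL-6 KO tumor. Library 3 was the lowest of the IL-6 KO libraries in both compartments.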

How the data were processed

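RNA of sorted bone marrow, the mCherry+ leukemia as tumor and all mCherry- cells as stroma, was sequenced by the authors from ribosome-depleted libraries, 4 for each host genotype and compartment. Groups and replicate numbers came from the labels, and all 16 libraries were used. The authors aligned reads to mm10, quantified transcripts with salmon 1.3.0 and normalized the estimated counts with DESeq2 1.28.1. They deposited normalized counts for each compartment, a scaled signal and not whole reads, which could not be recovered, so edgeR and DESeq2 were not run here. The methods state 1 rough depth for the whole study and none per library, and normalized counts do not show it, so no counting interval was computed. Sums of normalized counts were 8805689 to 17470735 in WT stroma, 33973016 to 44191950 in IL-6 KO stroma, 38817792 to 44552085 in WT tumor and 47267047 to 55592959 in IL-6 KO tumor. The authors' own comparisons (mean, log2 fold change, Wald statistic, p-value and adjusted p-value) were not used.

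Values were tested as log2(normalized count + 1) with limma 3.58.1 in R 4.3.3 (moderated variances with a trend), on genes with a mean over 10, two-sided, with genotype as the only term and Benjamini-Hochberg adjustment over all genes tested at a threshold of 0.05. A fold change on this scale understates that of low genes. Each compartment was fitted alone. The test was tried on simulated data, where it found most of the changed genes in tumor and missed most of them in stroma. Names, positions and longest transcripts came from GENCODE vM21, which held 13338 of 13344 stroma and 15069 of 15080 tumor identifiers. Of a symbol with more than 1 gene (Lilrb4a), the gene with the larger mean was kept. Copies were searched with BLAST 2.17.0. Tables, tests of ratios and plots used SciPy 1.17.1, pandas 2.3.3 and matplotlib 3.10.9 under Python 3.11.15.

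The members and lists were chosen with earlier results of these data known, and the lists were written from general knowledge. Named genes were the 8 members, up to 4 genes per list with the smallest p in tumor and up to 2 in stroma, the 8 genes most like the members, and Rn7s1. The result of 1 gene that this rule gives is not reported here. Genes named beyond it (Cd22, Mertk, Siglec1, C1qa, Kit, Siglecf, Col1a2 and the other mesenchymal and endothelial genes, and markers named as not analysed) were picked with their values known, as were Csf3r and Cd79a for the levels. Alternatives were pseudocounts of 0.5 and 5, no filter or a mean over 50, quantile normalization, median centring, scaling without the 20 largest genes, array weights, no variance trend, a block for the replicate number, leaving out single libraries, and, added after seeing the data, taking the GC content and length trend out of each library (loess, span 0.3) and keeping only genes with both group means over 10.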

Additional observations from a re-analysis of the deposited data

Results flagged for a closer look

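Each gene in the files was examined in each group of 4 libraries (30 sets of values), as were the S100a8 to S100a9 log2 ratio and the members' summed count (8 more), for a highest or lowest library far from the others (a gap to the nearest library, as a share of the group's range, past Dixon's 95% critical value), and 3 of these 38 sets had one, where chance gives about 1 in 20. Il1r2 was at 75.3 in IL-6 KO stroma library 4 and at 11.8 or less in the other 3. Stfa2l1 was at 22.2 in the same library and at 2.39 or less in the other 3. Il1r2 was at 12.1 in WT tumor library 4 and at 6.43 or less in the other 3.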

How the results depend on the processing

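S100a9 passed the threshold in tumor under each alternative, and no member passed in stroma under any, which says nothing about stability there. The number of genes called in stroma was 1, and it was 4 with array weights, 6 without a variance trend, 2 with the GC content and length trend removed, 0 among genes with both group means over 10 and between 1 and 3 with a library left out. The log2 fold change of S100a8 in stroma (-0.02) turned to 0.068 with array weights and 0.17 with the GC content and length trend removed, and lay between -0.30 and 0.21 with a library left out (above 0 without WT library 3 or 4 or IL-6 KO library 3 or 4). Members called in tumor were 4, and between 1 and 4 with a library left out (2 without WT library 3, 1 without IL-6 KO library 1 or 4), and 3 to 6 otherwise, with 6 after the GC content and length trend was removed. That last alternative also brought Wfdc21 to 1.71 (limma adjusted p = 0.0288). Without a variance trend Retnlg had a limma adjusted p of 0.0544. Genes called in tumor were 2870, between 1569 and 3327 with a library left out and between 2181 and 4153 otherwise. The other mature neutrophil genes called in tumor were 17, 10 of 18 tested with a mean over 50, and between 10 and 18 with a library left out (10 without IL-6 KO library 1, 11 without IL-6 KO library 4). The tumor log2 ratio of S100a8 to S100a9 lay between -0.96 and -0.83 with a library left out, with an exact permutation p of 0.0571, the smallest that 3 libraries against 4 allow. Of the calls in tumor, 53.7% were higher in IL-6 KO, 37.2% with the scaling without the 20 largest genes and 68.9% with the GC content and length trend removed, and the members called stayed higher in each. The cause of these changes was not tested. With no counts per library, depth limits could not be set.

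Within each compartment, correlations of WT with IL-6 KO libraries of the same number were between -0.03 and 0.13. Of the WT libraries, 0 correlated best with their own number, so the numbers were not taken to pair WT with IL-6 KO samples. A pairing of stroma with tumor libraries was not tested. With the replicate block 3 members, 2230 genes and 16 of the other mature neutrophil genes were called in tumor, and Hdc had a limma adjusted p of 0.0627.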
